A study of Mus musculus with 15 samples.

Results

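Dazl, Stra8, Sycp3, Sycp1, Tex101, Taf7l and Slc25a31 were examined as a group of 7 genes that act in germ cells. All probes that carry 1 of these gene names on the expression and MeDIP promoter arrays were taken, which gave 10 of 41174 expression probes and 33 of 80567 promoter probes. Every gene had an expression probe, and 6 of the 7 had promoter probes. Stra8 had none under its own name.

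The study compared mouse embryonic stem (ES) cells of the wild-type line J1 with those of the line TKO, in which DNA methylation is deficient because the methyltransferases Dnmt1, Dnmt3a and Dnmt3b are missing. Both lines were cultured in serum with LIF, the cytokine that keeps mouse ES cells undifferentiated, and were kept without feeder cells for 2 passages before harvest. In MeDIP, an antibody enriches methylated fragments, here from 2 ug of DNA, and the enriched DNA of both lines shared each promoter array, with J1 labelled as Cy3 and TKO as Cy5. The promoters were split over 2 array designs with 7 arrays each, from different passages, and RNA was compared on 3 arrays of 2 colours. Only 1 J1 and 1 TKO line were used, so the spread below is that between arrays and covers no spread between lines of a genotype.

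Germ cell genes of this kind are silent in most body cells, and DNA methylation of CpG-rich promoters is one of the known layers of that silencing. Dazl encodes an RNA-binding protein that lets germ cells respond to the signal for meiosis, and Stra8 is induced by retinoic acid and starts meiosis. Sycp1 and Sycp3 encode parts of the synaptonemal complex, the protein scaffold between paired meiotic chromosomes. Tex101 encodes a surface glycoprotein of germ cells, Taf7l is a germ cell paralogue of the transcription factor subunit Taf7, and Slc25a31 encodes the ADP/ATP carrier of sperm mitochondria.

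The promoter windows of Dazl, Stra8, Sycp3 and Taf7l are given here because they span the range of CpG content and motif matches in the group. Each runs from 250 bases before to 50 bases after the annotated start in RefSeq on GRCm38.p6, read 5′ to 3′ in the direction of the gene, and capitals mark the CG dinucleotides, the sites that the methyltransferases modify.
Dazl, chr17:50293571-50293870, minus strand: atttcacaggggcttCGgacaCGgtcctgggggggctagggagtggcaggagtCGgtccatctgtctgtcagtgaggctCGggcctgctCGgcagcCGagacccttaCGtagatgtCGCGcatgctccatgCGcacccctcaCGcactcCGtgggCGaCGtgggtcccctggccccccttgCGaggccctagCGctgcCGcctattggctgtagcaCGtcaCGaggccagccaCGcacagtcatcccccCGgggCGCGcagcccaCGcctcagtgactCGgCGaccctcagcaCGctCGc
Stra8, chr6:34920698-34920997, plus strand: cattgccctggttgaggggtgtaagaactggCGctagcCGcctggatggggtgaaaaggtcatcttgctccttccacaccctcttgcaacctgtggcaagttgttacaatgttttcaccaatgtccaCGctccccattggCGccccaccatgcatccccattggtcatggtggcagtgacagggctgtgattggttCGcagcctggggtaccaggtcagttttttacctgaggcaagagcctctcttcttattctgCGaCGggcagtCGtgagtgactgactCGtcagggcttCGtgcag
Sycp3, chr10:88459337-88459636, plus strand: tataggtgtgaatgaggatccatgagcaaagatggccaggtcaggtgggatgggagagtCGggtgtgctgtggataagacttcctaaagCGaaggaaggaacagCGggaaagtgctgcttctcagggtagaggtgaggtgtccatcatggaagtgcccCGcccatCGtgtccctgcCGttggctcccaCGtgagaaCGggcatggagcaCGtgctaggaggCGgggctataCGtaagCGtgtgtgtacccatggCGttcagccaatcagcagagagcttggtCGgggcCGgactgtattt
Taf7l, chrX:134476441-134476740, minus strand: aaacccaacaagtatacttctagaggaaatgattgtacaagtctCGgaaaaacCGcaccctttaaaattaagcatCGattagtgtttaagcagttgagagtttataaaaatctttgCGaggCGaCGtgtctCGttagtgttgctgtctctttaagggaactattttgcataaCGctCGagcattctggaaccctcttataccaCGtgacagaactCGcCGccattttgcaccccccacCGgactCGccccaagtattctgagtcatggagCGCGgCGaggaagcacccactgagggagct

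All 7 genes matched 1 window each in the RefSeq table. Dazl had 28 CG dinucleotides in its 300 bases, the most of the group, and Stra8 had 10, the fewest. The other windows held 22 at Slc25a31, 21 at Sycp1, 19 at Tex101, 17 at Taf7l and 15 at Sycp3. All 7 lay above the median of 7 over the 32851 promoters of the table. The ratio of observed to expected CG was highest at Taf7l, at 1.03, and lowest at Stra8, at 0.43, against a median of 0.38. The sequence CACGTG, an E-box that MAX and MGA dimers can bind, was searched on both strands and lay in 4 of the 7 windows and in 7.15% of all promoters in the table. Sycp3 held it at 64 and 43 bases before the start, and Taf7l, Slc25a31 and Sycp1 held it once, at 49, 93 and 94 bases before the start. Its extended form TCACGTGA, which contains CACGTG, lay in 0 of the 7 and in 0.974% of promoters. The E2F-type sequences GCGGGAA and GGCGCGAA lay in 2 of 7 (Sycp3 and Slc25a31) and in 0 of 7, against 4.6% and 0.524% of promoters. AGGTCA, a half-site of nuclear receptors, lay in 2 of 7 windows (at 2 places in Stra8 and 1 in Sycp3) and in 16.3% of promoters. These matches describe letters in the windows and are no measure of binding.

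The share of expression probes well above background was 38.5% to 66.7% per line and array, with the lowest values on replicate 3, where 8291 probes were marked as uneven and left out. The dye order on these arrays is likely rather than settled: the labels give each line as either dye, the study text states that replicate 2 was swapped, and J1 was taken as Cy5 on replicates 1 and 3. With this order the deleted genes were lower in TKO, with log2(TKO/J1) of -1.07 for Dnmt1 (n = 2 arrays), -2.36 for Dnmt3a (n = 2) and -2.51 for Dnmt3b (n = 3). Whether these probes lie in the deleted exons was not tested. All directions of expression below rest on this order.

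All 7 genes were higher in TKO than in J1, and the arrays on which each was fitted all lay on that side. The genes of meiotic entry rose most, Dazl by 5.31-fold and Stra8 by 4.75-fold, followed by Tex101 by 3.41-fold. Taf7l rose 1.91-fold, Sycp1 1.72-fold, Slc25a31 1.70-fold and Sycp3 1.26-fold. The order of Taf7l and Sycp1 depended on the processing. With Agilent's processed signals the log2 ratio was 1.42 for Sycp1 and 1.13 for Taf7l. Tests used limma with Benjamini-Hochberg adjustment over 12007 genes. At an adjusted p under 0.05, 7 of 7 were called higher, where 16.6% of all tested genes were. Of the 7, 3 were also past 2-fold, where 1.61% of tested genes were. A tested probe had to be well above background on every array in either line, and Slc25a31 met this in TKO only. With probes well above background in both lines, 6 of 6 tested genes were called higher, where 16.1% of all tested genes were. The arrays of Dazl (2.01 to 2.80 as log2 ratio) and Stra8 (2.04 to 2.44) overlapped, as did those of Taf7l, Sycp1 and Slc25a31, while Tex101 and Sycp3 overlapped with no other gene. In bulk samples a larger share of expressing cells and more RNA per cell cannot be told apart. Markers of other cell types were also called higher in TKO. They were 7 of 7 tested primitive endoderm markers, 3 of 4 trophoblast markers and 5 of 6 fibroblast or feeder markers. Over all tested genes that share was 16.6%. Of 9 trophoblast markers on the array only 4 could be tested, and 1 fibroblast or feeder marker fell. The summed signal of the fibroblast or feeder markers was not higher in TKO (4860 to 6516) than in J1 (4940 to 6624). The part of these markers in the results was not tested.

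**Figure D1:**
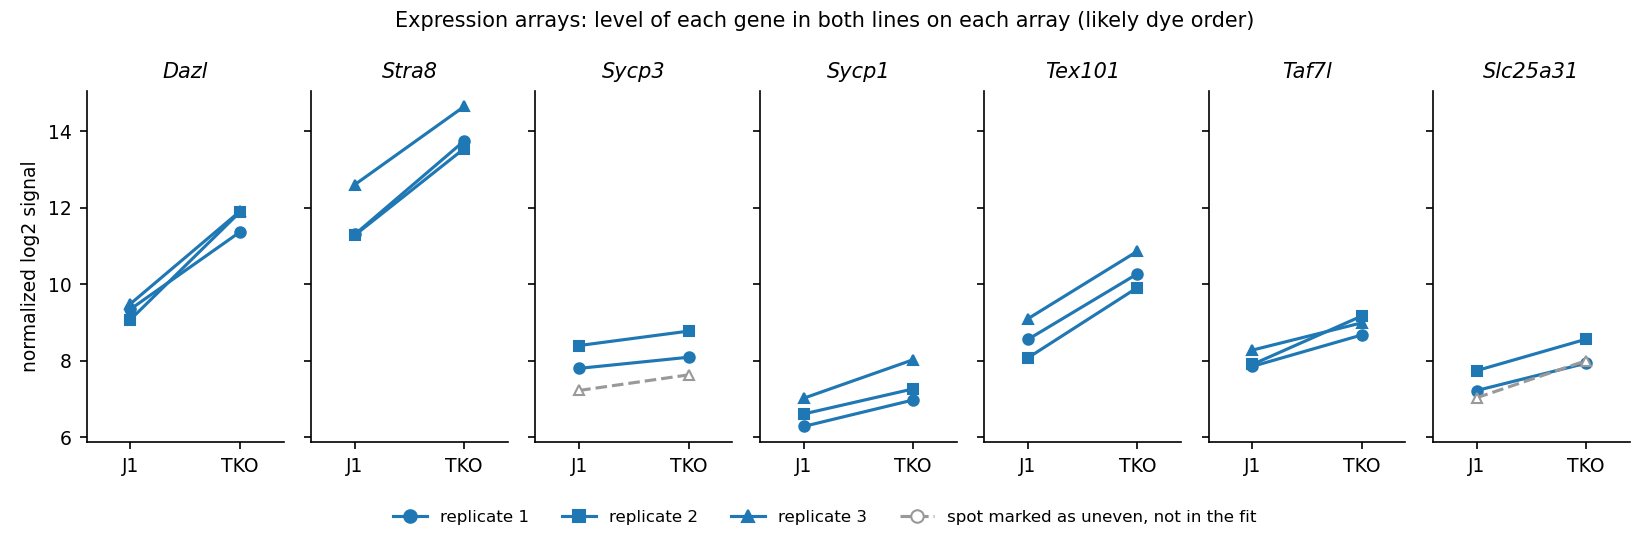
Normalized log2 signal (vertical axis) of the tested probe of each gene in J1 and TKO, with a line for each of the 3 arrays; grey dashed lines are spots marked as uneven and not in the fit. Every line goes up from J1 to TKO, most steeply for Dazl (9.08 to 11.88 on replicate 2) and least for Sycp3 (8.40 to 8.78 on replicate 2).

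For Dazl, the normalized log2 signal of the tested probe was 9.35, 9.08 and 9.49 in J1 and 11.36, 11.88 and 11.90 in TKO on replicates 1, 2 and 3. The lowest TKO value lay above the highest J1 value. Log2(TKO/J1) was 2.01, 2.80 and 2.41 on the 3 arrays, with a mean of 2.41 ± 0.40 (SD, n = 3) and an adjusted p of 2.228e-06 by limma, and Dazl ranked 6 of the 12007 genes by this ratio. A second Dazl probe did not pass the filter, since its uneven spot on replicate 3 was not well above background, and gave ratios of 2.06 and 1.92 on replicates 1 and 2.

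Stra8 had 1 probe. Its log2 signal was 11.30, 11.28 and 12.60 in J1 and 13.74, 13.54 and 14.64 in TKO, again with no overlap between the lines. The ratio was 2.44, 2.26 and 2.04, with a mean of 2.25 ± 0.20 (SD, n = 3) and an adjusted p of 5.317e-07 by limma. On each array its J1 signal stood well above background, so J1 cells had a measurable Stra8 signal.

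The synaptonemal complex genes changed less than Dazl and Stra8. For Sycp1, the log2 signal was 6.29, 6.61 and 7.02 in J1 and 6.98, 7.27 and 8.03 in TKO. These J1 values lay near the lowest signals well above background, 5.88, 5.86 and 5.91 on the 3 arrays. The lines overlapped across arrays but not within an array, where the ratio was 0.69, 0.65 and 1.00, a mean of 0.78 ± 0.19 (SD, n = 3) with an adjusted p of 0.0002264 by limma. For Sycp3, the fit used replicates 1 and 2, with ratios of 0.29 and 0.38, because the spot on replicate 3 was uneven. The mean was 0.33 ± 0.06 (SD, n = 2) with an adjusted p of 0.03688 by limma. The Sycp3 ratio was 0.39 when arrays were centred on the median without loess and 0.33 with a dye term, and neither was called (adjusted p 0.40 and 0.056). A second Sycp3 probe, for another transcript, was not well above background in either line on any array.

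Tex101 had the steadiest ratio of the genes measured on all 3 arrays. Its log2 signal was 8.56, 8.08 and 9.10 in J1 and 10.27, 9.91 and 10.86 in TKO, with every TKO value above every J1 value. The ratio was 1.72, 1.83 and 1.76, a mean of 1.77 ± 0.06 (SD, n = 3) with an adjusted p of 9.261e-07 by limma.

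Taf7l and Slc25a31, both germ cell counterparts of genes used throughout the body, rose by less than 2-fold. For Taf7l, the log2 signal was 7.86, 7.91 and 8.28 in J1 and 8.68, 9.17 and 8.99 in TKO, without overlap. The ratio was 0.82, 1.26 and 0.71, a mean of 0.93 ± 0.29 (SD, n = 3) with an adjusted p of 0.000203 by limma. Its second, dimmer probe gave 0.75, 0.63 and 0.77. For Slc25a31, the fit used replicates 1 and 2, with ratios of 0.71 and 0.82, a mean of 0.77 ± 0.08 (SD, n = 2) and an adjusted p of 0.0007101 by limma. The uneven Slc25a31 spot on replicate 3 gave 0.97 and was not well above background in J1.

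**Figure D2:**
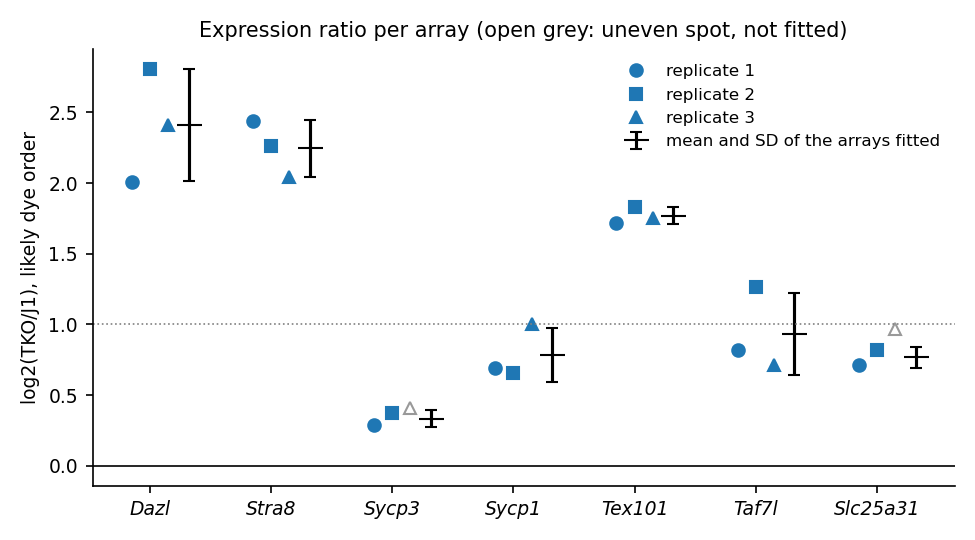
Log2(TKO/J1) of each gene on each array (symbols) with the mean and SD of the arrays fitted (bars); the dotted line marks 2-fold, and open grey symbols are uneven spots. Dazl, Stra8 and Tex101 lie above the dotted line on all 3 arrays, and Sycp3 lies lowest, at 0.29 and 0.38 on the arrays fitted.

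With the authors' deposited table of mean ratios, 6 genes lay past 2-fold, with log2 ratios of 2.54 for Dazl, 2.29 for Stra8, 1.95 for Tex101, 1.42 for Sycp1 and 1.13 for Taf7l and for Slc25a31, with Sycp3 at 0.48. Those means carry no error. Without replicate 1 or without replicate 2, 5 of 5 genes that could be tested were called higher, since Sycp3 and Slc25a31 then had 1 array each. Of all genes tested in these fits, 13.7% and 12.4% were called higher.

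The wider lists of germ cell and meiotic genes changed in both directions. Their values are mean log2(TKO/J1) ± SD over n arrays. Over all 12007 genes tested the median log2(TKO/J1) was -0.01, with 1991 genes (16.6%) called higher and 1985 (16.5%) lower, a share of 50.1% higher among calls. With median centring in place of loess that share was 39% of 952 calls, of which 371 were higher. Without replicate 1 the calls of higher genes numbered 1175 of 8601 tested (13.7%). Without replicate 2 they numbered 1069 of 8607 (12.4%). The counts of most lists fell with median centring too, where 3.09% of all tested genes were called higher in place of 16.6%. Called higher were 4 germ cell factors in place of 12 and 2 synaptonemal complex genes in place of 6. Meiotic entry kept its 3 and the testis counterparts of housekeeping genes their 2, and 6 of the 7 genes of the group stayed called. Of the recombination, PRC1.6 and repressor, retinoic acid and bodywide lists 0 were called. With probes well above background in both lines, 16.1% of all tested genes were called higher. The counts were then 9 germ cell factors, 2 meiotic entry genes, 1 testis counterpart of housekeeping genes and 2 retinoic acid genes, and the other lists kept theirs.

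Of the meiotic entry list, 3 of 6 tested genes rose (Dazl, Stra8 and Rec8) and 1 fell, with a list median of 0.60. Rec8, the meiotic cohesin subunit, rose by 0.94 ± 0.07 (SD, n = 2) on the log2 scale. Meiob, a single-stranded DNA-binding factor of meiotic recombination, fell by 1.12 (SD 0.05, n = 2).

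Of the synaptonemal complex list, 6 of 10 tested genes rose and 1 fell, with a median of 0.35. The central element genes Tex12 (0.98 ± 0.24, n = 2), Syce2 (0.74 ± 0.25, n = 2) and Syce3 (0.37 ± 0.10, n = 3) and the axis gene Sycp2 (0.50 ± 0.09, n = 3) rose besides Sycp1 and Sycp3. Hormad2, an axis protein gene named after its value was seen, fell by 0.36 (SD 0.13, n = 3).

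Of the recombination list, 3 of 9 tested genes rose, Rec114 (0.42), Stag3 (0.32) and Tex15 (0.30), and 1 fell, Smc1b (-0.38), around a median of -0.03. Without replicate 1 or 2, 3 synaptonemal complex genes and 0 recombination genes were called higher, where 13.7% and 12.4% of all tested genes were. Of the recombination genes, Rec114 and Stag3 then had 1 array and no test, and Tex15, measured on all 3 arrays, was tested and not called.

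Of the germ cell factors, 12 of 19 tested genes rose and 1 fell, with a median of 0.52. Beside Dazl, Tex101 and Taf7l, the largest rises were those of Fkbp6, needed for male meiosis (1.00 ± 0.36, n = 3), Nxf3, an X-linked RNA export factor (0.96 ± 0.04, n = 3), Dppa3, a maternal factor that guards methylation in the zygote (0.72 ± 0.20, n = 3), and Tex19.1 (0.66 ± 0.29, n = 2). Prdm1, named after its value was seen, fell by 0.32 (SD 0.07, n = 3). Of the testis counterparts of housekeeping genes, only Taf7l and Slc25a31 of 12 tested genes rose, and Cstf2t (-0.46) and Pabpc2 (-0.32) fell. Without replicate 1 or 2, 1 of that list was called higher.

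Of the bodywide relatives of the 7 genes, 1 of 6 rose and 1 fell, a share near that of all tested genes. Slc25a4, the ADP/ATP carrier of heart and muscle, rose by 0.80 ± 0.11 (SD, n = 2), Dazap2 fell by 0.39 (SD 0.23, n = 3), and Taf7 was at 0.09 ± 0.36 (SD, n = 3) and not called. Without replicate 1 or 2, 0 of these were called higher.

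Among regulators, 3 of 15 tested genes of the PRC1.6 complex and other repressors of germline genes rose and 4 fell, with a median of 0.02. The E2F partner Tfdp1 rose by 0.85 ± 0.31 (SD, n = 3), and Hdac1 (-0.60), Max (-0.49), Hdac2 (-0.36) and Mga (-0.32) fell. Of the retinoic acid pathway, 3 of 12 rose and 2 fell, with a median of 0.06. Rdh10, which makes retinaldehyde, rose by 0.44 ± 0.14 (SD, n = 3), Crabp1 rose by 0.36 (SD 0.17, n = 2), and Aldh1a3, a retinaldehyde dehydrogenase, fell by 0.49 (SD 0.14, n = 2). Without replicate 1 or 2, 1 gene of each of these lists was called higher. Both lists lay nearer than the germ cell factors to the 16.6% of all tested genes called higher.

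**Figure D3:**
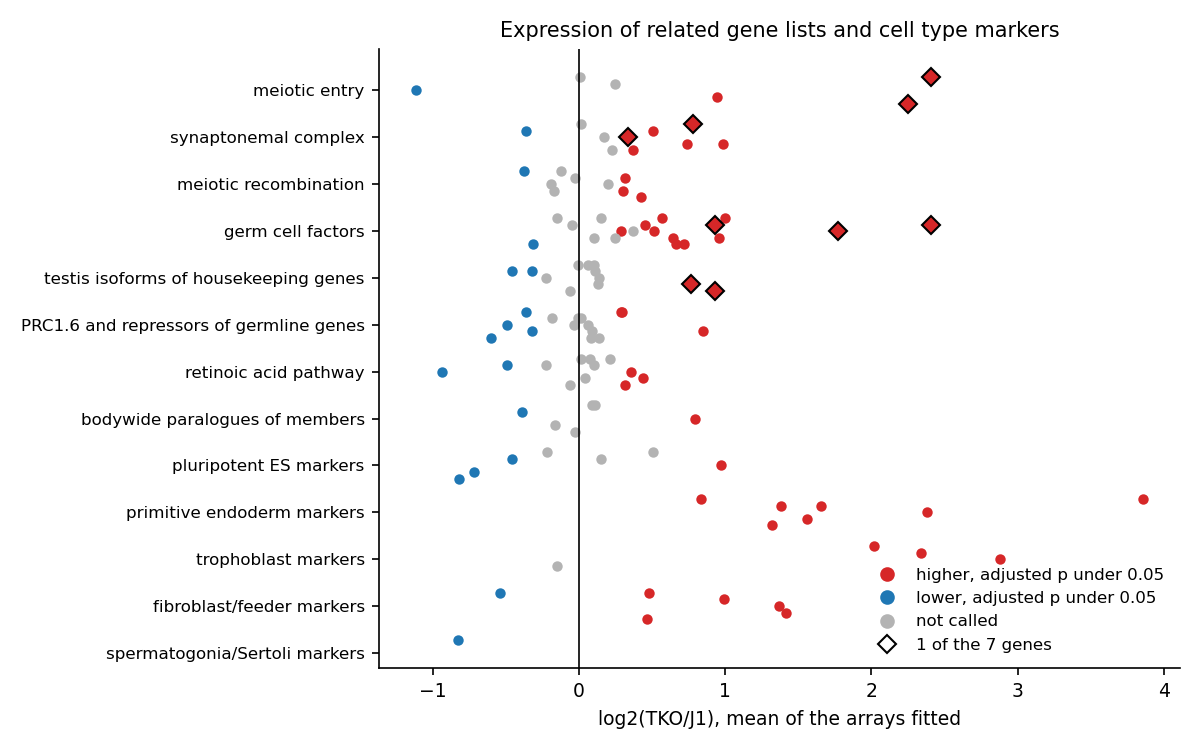
Mean log2(TKO/J1) of every tested gene (points) of each list of related genes and cell type markers (rows), in red where called higher and blue where called lower; diamonds are the 7 genes. Dazl and Stra8 lie at 2.41 and 2.25, to the right of every other gene of the 8 upper lists, and the endoderm marker Afp lies farthest right at 3.86.

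The markers of the cell type that the lines stand for were present. Pluripotency markers had a summed linear signal of 70579 to 90736 in J1 and 79883 to 119181 in TKO over the arrays, with 7 of 9 well above background on all 3 arrays in J1 and 7 in TKO. Of these markers 3 of 7 tested fell and 1 rose. The summed signal was 1928 to 2534 in J1 and 5495 to 5779 in TKO for 10 primitive endoderm markers, 7306 to 8658 and 30428 to 42545 for 9 trophoblast markers, and 4940 to 6624 and 4860 to 6516 for 9 fibroblast or feeder markers. Of 7 markers of spermatogonia and Sertoli cells, 1 could be tested, Uchl1, which fell by 0.82 (SD 0.15, n = 2), and Gfra1, a defining receptor of spermatogonial stem cells, was never above background.

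The ratio profile of the genes measured on all 3 arrays (Dazl, Stra8, Sycp1, Tex101 and Taf7l) had a median of 1.72, 1.83 and 1.76. This median is the profile of Tex101, the middle gene on each array, so the genes below are neighbours of Tex101. Dazl (2.01, 2.80 and 2.41) and Sycp1 (0.69, 0.65 and 1.00) had other profiles. Among 6481 other genes measured on all 3 arrays, the nearest by Euclidean distance over the 3 ratios were Prl3d1 (distance 0.11), Ctsh (0.23), Amn (0.24), C130073F10Rik (0.28) and Prl3d2 (0.29). Their mean ratios ran from 1.65 for Prl3d2 to 1.90 for Ctsh. Prl3d1 and Prl3d2 are near-identical prolactin family genes whose probes may not tell them apart.

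On the MeDIP arrays the ratio is given as log2 of the channel labelled J1 over the channel labelled TKO, so that values below 0 lie on the labelled TKO side. The share of probes well above background was 88.2% to 99.7%. No array was dye-swapped, so dye and line cannot be told apart and neither side is read here as the methylated line. The promoter value is the mean over the probes of a gene.

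All 6 measured promoters had a mean below 0. The ratio was farthest from 0 at Taf7l and Slc25a31, the X-linked and autosomal counterparts of housekeeping genes, and nearest to 0 at Sycp1. By limma over 14224 promoters with Benjamini-Hochberg adjustment, 5 of 6 were called on the labelled TKO side at any size, where 30.9% of all promoters were, and 0 of 6 were also at least 0.5 from 0, where 2.55% were. Of all promoter calls 45.1% lay on the labelled J1 side, and the share moved both ways with the processing: 31.5% with mode centring, 53.3% with normexp and median centring, 52.8% with the deposited values, 54.3% with probes above background in both channels, 55% with probes within 1000 bases of the start and 72.2% with brighter probes alone.

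The Taf7l promoter had ratios from -0.83 to -0.27 over 7 arrays, with a median array at -0.50. The mean was -0.47 ± 0.19 (SD, n = 7) with an adjusted p of 0.0001243 by limma, and all 7 arrays lay below 0. The Slc25a31 promoter ran from -0.71 to -0.24 with a median array at -0.29, and had a mean of -0.39 ± 0.18 (SD, n = 7) and an adjusted p of 0.0002251. The Sycp3 promoter ran from -0.54 to -0.25 with a median at -0.29, and had a mean of -0.34 ± 0.11 (SD, n = 7) and an adjusted p of 6.04e-05.

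The Tex101 promoter had the smallest spread, from -0.35 to -0.19 with a median at -0.25, and a mean of -0.25 ± 0.05 (SD, n = 7) and an adjusted p of 5.824e-05 by limma. The Dazl promoter, the one with the most CG dinucleotides in its window, ran from -0.30 to 0.06 with a median at -0.17 and 6 of 7 arrays below 0. Its mean was -0.15 ± 0.12 (SD, n = 7) with an adjusted p of 0.008476. The Sycp1 promoter ran from -0.17 to 0.03 with a median at -0.09, and had a mean of -0.07 ± 0.06 (SD, n = 7) that was not called (adjusted p 0.065).

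**Figure D4:**
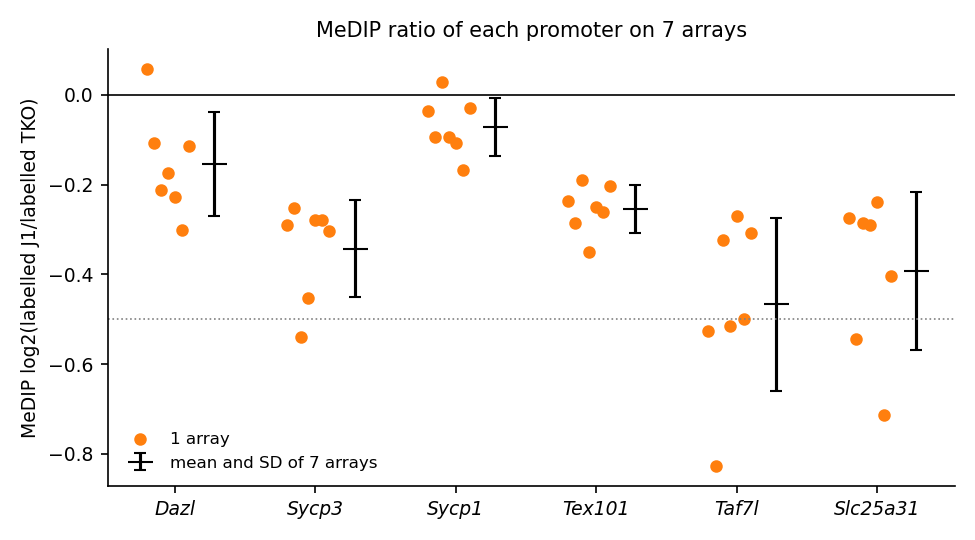
MeDIP log2 ratio of labelled J1 over labelled TKO for each promoter on each of 7 arrays (points), with the mean and SD (bars); the dotted line is at -0.5. Taf7l (mean -0.47) and Slc25a31 (-0.39) lie lowest and spread most, and Sycp1 (-0.07) lies nearest 0.

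The promoter values came from a few probes and depended on their brightness. Of the 33 probes 28 had a mean below 0 and 16 were called on the labelled TKO side, where 21.9% of all probes were, and 2 were called on the labelled J1 side. The 7 probes at least 0.5 below 0 were all dimmer than the median probe of the arrays. Among the dimmer probes of these genes 11 of 18 were called on the labelled TKO side, and among the brighter ones 5 of 15. Over all probes of the arrays those shares were 30.0% and 13.9%. With the processed signals used here, the median ratio was -0.14 and -0.13 in the dimmest of 4 equal groups of probes on the 2 designs. It rose to 0.08 in the brightest group of both. With another background correction (normexp) and median centring the order was reversed. The dimmest groups then had medians of 0.11 and 0.19, and the brightest -0.02 and -0.002. The part of brightness in the promoter values was not tested beyond the alternatives given here.

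At Sycp3 the promoter mean rested on the dim probes 638 and 460 bases before the start, at -0.89 ± 0.42 and -1.24 ± 0.68 (SD, n = 7). The probes at 236 bases before and 44 bases after the start were at 0.07 ± 0.21 and -0.07 ± 0.09, and the one 325 bases after it was at 0.23 ± 0.17 (SD, n = 6), on the labelled J1 side. The CACGTG matches of Sycp3 were placed from the RefSeq start and the probes from the start annotated on the array. Whether these starts coincide was not tested, so matches and probes are not placed against each other. With another background correction (normexp) and median centring the Sycp3 promoter was at -0.02 with an adjusted p of 0.81, and the call was lost. With normexp and loess it was at -0.10 and called (adjusted p 0.0014).

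At Taf7l the probe 263 bases before the start was at -1.19 ± 0.45 (SD, n = 7), below 0 on all 7 arrays, and stayed at -0.57 with normexp, where it was the 1 probe of the 33 at least 0.5 below 0. With normexp and median centring the promoters of Taf7l, Slc25a31 and Tex101 stayed called at smaller means of -0.18, -0.16 and -0.16. The brighter probe 7 bases after the start was at -0.30 ± 0.20 (SD, n = 7). Those at 823 and 543 bases before the start, at -0.09 and -0.18, were not called.

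At Slc25a31, 5 of 6 probes were called on the labelled TKO side, from -0.76 ± 0.40 at 291 bases before the start to -0.29 ± 0.11 at 239 bases after it (SD, n = 7). With normexp the dim probes 291 and 867 bases before the start were at -0.17 and -0.05 and not called (adjusted p 0.060 and 0.51 by limma). The one at 867 bases was not well above background on every array. The other called probes stayed called. The probe 17 bases before the start was at 0.06 ± 0.41. At Tex101, 4 of 5 probes were called, with -0.51 ± 0.21 at 576 bases before the start and -0.22 ± 0.17 at 37 bases before it (SD, n = 7). The called Tex101 probe 854 bases before the start was not well above background on every array. With normexp it was at 0.05 and not called, and the other called ones stayed called.

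At Dazl 1 of 5 probes was called, 855 bases before the start, at -0.35 ± 0.19 (SD, n = 7), and the bright probe 40 bases before the start was at 0.04 ± 0.11 (SD, n = 6). The Dazl call was lost when the median over probes was taken in place of the mean (adjusted p 0.083). At Sycp1 the probe 967 bases before the start was called on the labelled TKO side (-0.29 ± 0.13) and the bright probe at 704 bases before it on the labelled J1 side (0.24 ± 0.23; SD, n = 7). Whether Sycp1 was called depended on the processing: it was called with normexp and median centring (-0.10, adjusted p 0.023), normexp and loess (0.0096), mode centring (0.024), the median over probes (0.033), loess on the processed signals (0.020) and without replicate 3 (-0.09, adjusted p 0.040).

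With the brighter probes alone, an alternative chosen after the data were seen, Dazl, Sycp3 and Sycp1 kept the 3 probes needed for a value. Dazl was at -0.16 and called (adjusted p 0.0055), and Sycp3 and Sycp1 lay at 0.075 and 0.0025, above 0 and not called. Tex101, Taf7l and Slc25a31 had too few brighter probes for a value.

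**Figure D5:**
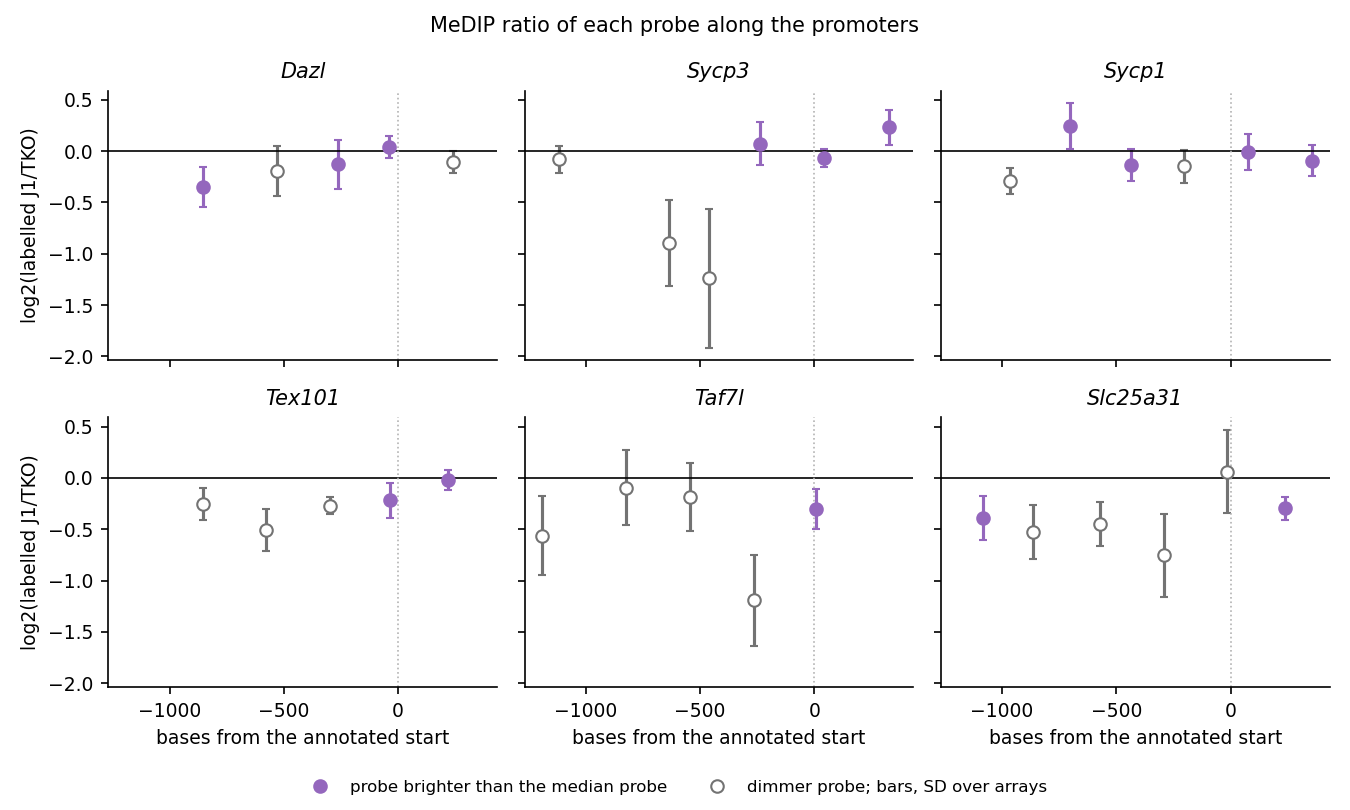
MeDIP log2 ratio of each probe (mean and SD over 6 or 7 arrays) against its distance in bases from the annotated start, with filled points for probes brighter than the median probe of the arrays and open points for dimmer ones. The lowest values, at Sycp3 (-1.24) and Taf7l (-1.19), are dim probes, and the bright probe of Sycp3 at 325 bases after the start lies above 0 at 0.23.

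For Stra8 the nearest probes belonged to a promoter shared in name with 9530020G05Rik, between 8062 and 9787 bases before the Stra8 start, outside the rule for the group. Their ratios ran from 0.06 ± 0.85 to 0.34 ± 0.12 (SD, n = 7). The farthest was called on the labelled J1 side with an adjusted p of 0.001411 by limma. The nearest, at 0.21 ± 0.19, was called on that side too (adjusted p 0.037 by limma), and the others were not called. They say nothing of the Stra8 start itself.

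In the wider lists the MeDIP calls fell on both sides. On the labelled TKO side, where 30.9% of all promoters were called, lay 12 of 24 promoters of germ cell factors, 12 of 19 of the testis counterparts of housekeeping genes, 3 of 6 of meiotic entry, 2 of 4 of the synaptonemal complex and 3 of 11 of recombination. These calls include promoters already reported above, so the lists are not separate from them. They are Dazl, Tex101 and Taf7l among the germ cell factors and Taf7l and Slc25a31 among the testis counterparts. Dazl is also among the meiotic entry calls and Sycp3 among those of the synaptonemal complex. The list medians were -0.10, -0.15, -0.09, -0.09 and -0.07, against -0.003 over all promoters. Among genes named above, Dppa3 had a promoter ratio of -0.72 ± 0.15 and Rec8 of -0.17 ± 0.11, while Syce2 lay on the labelled J1 side at 0.28 ± 0.06 (SD, n = 7). Of the retinoic acid pathway 4 of 18 promoters were called on the labelled TKO side, and of the PRC1.6 and repressor list 2 of 14. The 3 of 11, 4 of 18 and 2 of 14 lay below the share of all promoters. The counts were not steady. Germ cell factors went from 12 to 8 with normexp and median centring. They went to 7 with probes above background in both channels and 1 with brighter probes alone. Testis counterparts went from 12 to 5, 13 and 1 under the same alternatives. Over all promoters the share called on the labelled TKO side went from 30.9% to 14.2%, 26.8% and 14.7%. With brighter probes alone 7233 of 14224 promoters had a value. Of the small lists, 1 synaptonemal complex promoter was called on that side without replicate 2 or 6, 1 recombination promoter without replicate 2, 3, 6 or 7, and 1 of the PRC1.6 and repressor list without replicate 2, 3, 5, 6 or 7.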

How the data were processed

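Expression was measured on 3 arrays and MeDIP on 14 (2 designs of 7). Scanner files were made with Agilent Feature Extraction (8.5 in the submitters' processing notes; 8.5.1.1, and A.7.5.1 for 2 expression arrays, per the file headers). Their intensity values are the spot brightness as scanned, plus processed signals that were background-subtracted and dye-normalised, with a linear dye correction for MeDIP and LOWESS for expression, per the file headers. Log10 ratios make up the authors' deposited value tables, and those for MeDIP matched the scanner log10 of red over green within 0.001 for 98.9% to 100% of spots, with column medians from -0.0102 to 0. The deposited expression table (median -0.0158) ran with replicate 2's red over green (r = 0.85 over spots) and against replicates 1 and 3 (r = -0.859 and -0.817). Its sign was set from that comparison, its correlation with the ratios fitted here over genes was 0.924, and how it was centred is not stated there.

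MeDIP ratios were log2 of green over red processed signals, centred on each array's median, without loess. A promoter was the probes of 1 gene name, divided wherever neighbours lay over 2000 bp apart, and needed 3 probes. Expression used normexp (offset 50) and loess; spots of a probe were averaged, spots marked as uneven left out, and each gene was read from its brightest probe, which had to be well above background on all 3 arrays in either line and measured on at least 2. Tests of the ratios against 0 used limma 3.58.1 (R 4.3.3), Benjamini-Hochberg over all features, and the fits were tested on simulated data. The number of arrays limits the precision. Whether the expression arrays came from separate cultures is not given, so their p-values measure the spread between arrays, which may be technical. Recorded slide codes repeat between expression replicates 2 and 3 and between some MeDIP arrays, which were taken as separate hybridisations. Expression gene names were taken from replicates 2 and 3 and updated through RefSeq tables: 22064 of 41174 probes by accession, 6286 by symbol and 4225 by synonym, with 8599 kept as in the file. No build is stated for the probe positions, so probes are placed only by distance from the annotated start. RefSeq windows (GRCm38.p6) were used for sequence.

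The members and lists were chosen with earlier results of these data known. Named besides members were up to 4 called genes of each list with the largest change, the 5 nearest ratio profiles and the Dnmt genes. Outside this rule, Mga, Taf7 and the cell type markers Afp, Uchl1 and Gfra1 are named. Others outside it are marked as named after their values were seen. An item that this rule selects is not reported here. Alternatives changed background correction, normalization, filters, probe summaries, regions, dye term, slide and left-out arrays.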

Additional observations from a re-analysis of the deposited data

Results flagged for a closer look

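Of 39 promoter and probe values of these genes on the MeDIP arrays, 3 probes had 1 array far from the other 6 by Dixon's test, which marks about 1 in 20 sets by chance. The Sycp3 probe 638 bases before the start was at -1.77 on replicate 4, and the Sycp3 probe 460 bases before the start was at -2.69 on replicate 3. The Taf7l probe 263 bases before the start was at -2.12 on replicate 2. All 3 are dimmer than the median probe, and each lay below 0 on all 7 arrays.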

How the results depend on the processing

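All 7 expression calls held with Agilent's processed signals, without background correction, without the filter on dim probes, with the mean over probes and with uneven spots kept, and the number of genes past 2-fold was 5 in place of 3 with the processed signals. Over the left-out arrays, the number called ran from 5 of 5 tested to 7 of 7, where 12.4% to 14.9% of all tested genes were called higher. The number past 2-fold ran from 3 to 4, the ratio of Dazl from 2.21 to 2.61 and that of Stra8 from 2.15 to 2.35. The 2 array designs hold different promoters. On the MeDIP arrays the number of promoters called ran from 5 to 6 over the left-out arrays, and 0 were past 0.5 under every alternative run. With the brighter probes alone 1 promoter was called of 3 that could be fitted, where 14.7% of all promoters were called on the labelled TKO side. Sycp1 lay at 0.0025 and Sycp3 at 0.075, both on the other side of 0. With normexp 10 of the 33 probes were called on the labelled TKO side in place of 16. Over all promoters the share called on that side went from 30.9% to 14.2% with normexp and median centring. The share of all probes called with normexp was not counted. The cause of these changes was not tested. The slide as a random block could be fitted on part 2, where the correlation within slides was -0.075, and could not be estimated on part 1, where 1 slide held 2 arrays. No paired analysis was possible because the 2 designs that share replicate numbers hold different promoters and were not compared. Within an array the ratio already pairs the lines. Dim signal limits the MeDIP values: 4 of the 33 probes were not well above background on every array.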
